A study of Homo sapiens with 12 samples.

Results

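The genes described here are 10 that act in the repair of DNA double-strand breaks by non-homologous end joining or in break signalling around it: ATM, PRKDC, XRCC5, XRCC6, DCLRE1C, XRCC4, LIG4, NHEJ1, TP53BP1 and RIF1. They were chosen by symbol, and all 10 were present among the 60583 genes of the deposited tables. Nascent RNA was measured by TT-seq, which captures RNA labelled with 4-thiouridine shortly before harvest, so a count reports transcription over the whole gene, introns included. The cells were the human osteosarcoma line U2OS and its derivative U2OS-AsiSI, which carries the AsiSI restriction nuclease fused to an oestrogen receptor domain. Each was transfected with a control siRNA (siCtrl) or with siINTS11, against the endonuclease subunit of the Integrator complex, and was harvested at 48 hours, giving 4 groups of 3 replicates. Both U2OS-AsiSI groups also received 4-hydroxytamoxifen (OHT), the ligand that lets the nuclease enter the nucleus, for 1 hour, and the U2OS groups carry no treatment label. Line, nuclease and OHT therefore cannot be told apart in a comparison of the lines, and whether U2OS-AsiSI is a single clone is not given in the sources used here.

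In non-homologous end joining the Ku heterodimer of XRCC5 and XRCC6 binds a broken DNA end and recruits PRKDC, the catalytic subunit of DNA-dependent protein kinase. The nuclease Artemis (DCLRE1C) trims ends that cannot be joined directly, and ligase IV (LIG4), held by its scaffold XRCC4 and aided by NHEJ1 (XLF), seals them. ATM is the kinase that spreads the break signal over the surrounding chromatin, where TP53BP1 (53BP1) and its effector RIF1 limit resection of the ends and so favour joining over homologous recombination. The study asked how Integrator bears on the elongation of RNA polymerase II, and these genes span lengths from 10.9 kb (LIG4) to 276.0 kb (XRCC4).

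Library totals ran from 20704611 to 38065726 counts. In U2OS-AsiSI every siINTS11 library (20704611 to 26579035) had a lower total than every siCtrl library (28299433 to 32981069). In U2OS the totals of the 2 siRNAs overlapped (29397678 to 31743963 under siINTS11, 29597323 to 38065726 under siCtrl). The targeted gene INTS11 was at 9.64, 11 and 9.83 CPM (counts scaled to library size) under siCtrl in U2OS-AsiSI and at 9.01, 9.33 and 9.49 under siINTS11, a log2 fold change of -0.13 (SE 0.08, adjusted p = 0.172, edgeR). In U2OS it was at 10.1, 8.88 and 10.1 CPM against 7.86, 7.07 and 7.19, a log2 fold change of -0.42 (SE 0.09, adjusted p = 6.08e-05, edgeR). Because the first of these did not pass the threshold and was 0.06 when scaled by library totals alone, siINTS11 below means the libraries labelled siINTS11. These counts report transcription of INTS11 and not its mature mRNA or protein, so how far siINTS11 lowered those was not tested here. Osteosarcoma cells were checked by mesenchymal markers. RUNX2, COL1A1, SPARC and VIM had between 1929 and 15782 reads in every library and ALPL 69 to 345, whereas COL1A2 (2 to 13), SP7 (4 to 10) and BGLAP (0) were near or at 0. Of the markers of other cell types, the 3 haematopoietic genes had at most 7 reads and KRT5 at most 3. CDH1 (136 to 264 reads), EPCAM (108 to 201), SYP (140 to 277), GFAP (6 to 56) and RBFOX3 (8154 to 15213) were detected, and their part in the results was not tested. The values are from bulk RNA, in which less RNA per cell and fewer transcribing cells cannot be told apart. Nothing in the labels says that the replicates are separate cultures, so p-values measure only the spread between these libraries, which may be technical.

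Levels are given as RPKM (reads per kilobase of gene span, scaled to library size), with all 12 libraries on 1 scale set by the trimmed mean of M-values (TMM). Under siCtrl the Ku genes were the most transcribed per length. XRCC6 (chromosome 22, 41621119 to 41664048, plus strand, hg38) averaged 4.55 RPKM in U2OS and 4.57 in U2OS-AsiSI, above 95.4% of 14301 protein-coding genes by its mean over the 12 libraries. XRCC5 (chromosome 2, 216107464 to 216206303, plus strand) followed at 4.05 and 3.95, and then came RIF1 at 2.8 and 2.83 and PRKDC at 2.77 and 2.7. Libraries of RIF1 and PRKDC overlapped in U2OS siCtrl and lay apart in U2OS-AsiSI siCtrl. DCLRE1C stood at 1.66 and 1.5 RPKM, ATM at 1.19 and 1.15, and XRCC4 at 1.13 in both lines, with ATM and XRCC4 overlapping. TP53BP1 (0.881 and 0.772) and LIG4 (0.802 and 0.743) were the lowest and did not separate from each other. They were close to the middle of all protein-coding genes, 48.7% and 49.2% of which had lower means. Under siINTS11 the mean of PRKDC was above that of RIF1, apart in U2OS and overlapping in U2OS-AsiSI. At the lower end XRCC4 overlapped with LIG4 and TP53BP1 lay below LIG4 in every library of both lines. NHEJ1 (chromosome 2, 219075317 to 219160865, minus strand) had 7 reads in all 12 libraries together and at most 3 in any. Its span is covered to 100.0% by AC068946.1 on the same strand. Of 565 protein-coding genes covered in this way, 0.354% averaged at least 50 reads. NHEJ1 was thus not measurable in these tables and is in no test below.

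**Figure D1:**
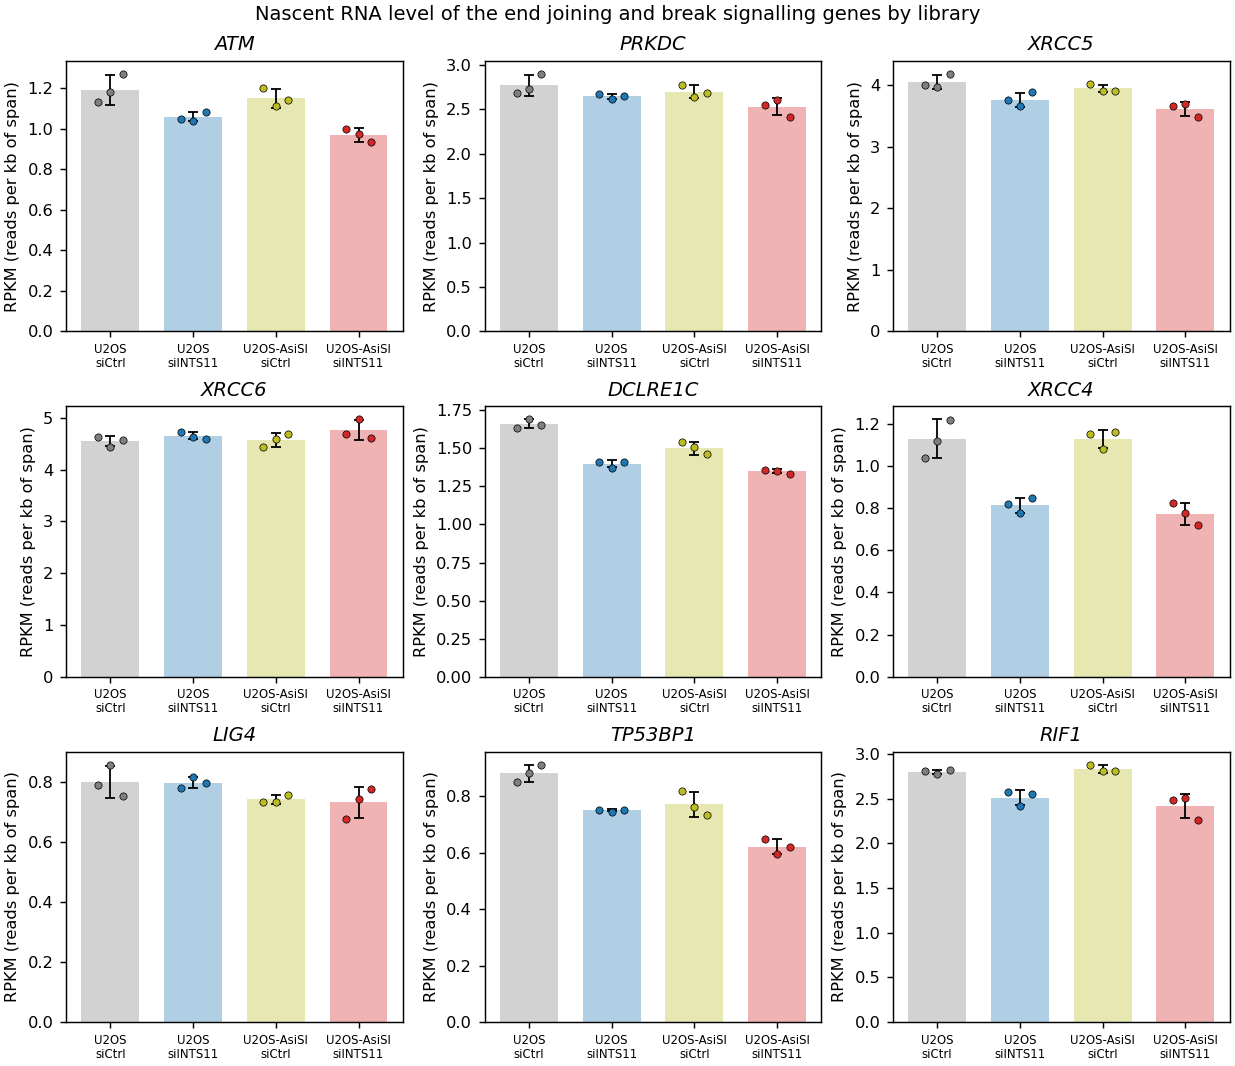
Nascent RNA level in RPKM (vertical axes, each from 0) of the 9 measurable genes in the 4 groups on the horizontal axis. Points are libraries, bars are means and error bars are SD (n = 3). In XRCC4 the 6 siINTS11 libraries lie between 0.722 and 0.846 and the 6 siCtrl libraries between 1.04 and 1.22, whereas XRCC6 overlaps between the siRNAs.

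After siINTS11 the end joining and break signalling genes were mostly lower, relative to a typical gene, and by modest amounts. In U2OS-AsiSI 6 of the 9 tested genes fell (ATM, XRCC5, DCLRE1C, XRCC4, TP53BP1 and RIF1), none rose, and PRKDC, XRCC6 and LIG4 missed the threshold, an adjusted p of 0.05 by the quasi-likelihood test of edgeR. Across all 20441 genes tested 32.6% fell and 35.4% rose, 68% in all. In U2OS the same 6 genes and PRKDC fell, 7 of 9, where 32.4% of 20687 genes fell and 34.5% rose (66.9% in all). The median log2 fold change of the 9 genes was -0.16 in U2OS-AsiSI and -0.19 in U2OS, against 0.03 and 0.02 over all genes tested and -0.05 over protein-coding genes in each line. These references do not match the 9 genes in length. Medians of protein-coding genes of similar span, given below, were under 0 in both lines for each of the 9 except LIG4. In 7 of 9 genes in each line all 3 siINTS11 libraries lay below all 3 siCtrl libraries, which was so for 34.7% of genes tested in U2OS-AsiSI and 31.2% in U2OS (71% and 69.4% with either group the lower). The lines share no libraries, and across the 9 genes, which are not independent replicates, their log2 fold changes had a Pearson correlation of 0.96 and a Spearman correlation of 0.9.

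These directions depended on how the libraries were scaled. With library totals alone the median log2 fold change over all genes went from 0.03 to 0.22 in U2OS-AsiSI and from 0.02 to 0.22 in U2OS, and the share of calls that were higher moved from 52.1% to 72.4% and from 51.6% to 74.3%. Under that scaling XRCC4 and TP53BP1 were lower and PRKDC and XRCC6 higher in U2OS-AsiSI, while in U2OS XRCC4 was lower and PRKDC and XRCC6 higher. A change of scaling shifts all genes by nearly the same amount, so a value relative to the median of all genes hardly changes by construction. Relative to that median, XRCC4 stood at -0.57 in U2OS-AsiSI and -0.52 in U2OS under TMM. It was the same under library totals, which is therefore no check on the scaling. Over the 15 fits of each comparison that difference ranged from -0.65 to -0.51 and from -0.58 to -0.46 for XRCC4, and for PRKDC from -0.20 to -0.06 and from -0.15 to -0.07. Yeast spike-in reads were not used here, and a change in total nascent RNA per cell was not measured.

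Of the 2 kinases ATM fell in both lines, and PRKDC was near the threshold in both. Below, values in U2OS-AsiSI are given before those in U2OS. ATM (chromosome 11, 108222484 to 108369102, plus strand), the apical kinase of break signalling, was at 1.2, 1.11 and 1.14 RPKM under siCtrl in U2OS-AsiSI and at 1.00, 0.973 and 0.934 under siINTS11. In U2OS it was at 1.13, 1.18 and 1.27 against 1.05, 1.04 and 1.08. Every siINTS11 library was below each siCtrl library of its line. ATM changed by -0.24 (SE 0.05, adjusted p = 3.31e-05, edgeR) in U2OS-AsiSI and -0.20 (SE 0.04, adjusted p = 3.32e-05, edgeR) in U2OS on the log2 scale, and by -0.05 and -0.0047 under library totals alone, where neither passed. PRKDC (chromosome 8, 47773111 to 47960178, minus strand) was at 2.78, 2.64 and 2.68 RPKM against 2.55, 2.61 and 2.42 in U2OS-AsiSI, and at 2.68, 2.73 and 2.90 against 2.67, 2.62 and 2.65 in U2OS. The siRNA groups were narrowly apart in both lines. Its log2 fold change was -0.09 (SE 0.05, adjusted p = 0.0822, edgeR) and -0.10 (SE 0.04, adjusted p = 0.0399, edgeR), and 0.10 in both lines under library totals alone. In U2OS-AsiSI it passed with DESeq2 (-0.11, adjusted p = 0.0392). The call in U2OS was lost with scaling from genes under 0.1 reads per base (adjusted p = 0.0707), with a mean count filter of 50 (0.23) and after thinning all libraries to the smallest total (0.055). It was also lost when siCtrl replicate 2 (adjusted p = 0.0782) or 3 (0.23) or siINTS11 replicate 1 (0.0647) or 2 (0.132) was left out, and without siCtrl replicate 3 the value was -0.05.

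The 2 Ku subunits, whose proteins are made for an obligate heterodimer, differed in their calls, as XRCC5 fell and XRCC6 did not pass in either line. XRCC5 was at 4.02, 3.91 and 3.91 RPKM under siCtrl and 3.66, 3.69 and 3.48 under siINTS11 in U2OS-AsiSI, and at 4.00, 3.97 and 4.18 against 3.76, 3.66 and 3.88 in U2OS. Its siINTS11 libraries were the lower ones in both lines without overlap. The log2 fold changes were -0.12 (SE 0.04, adjusted p = 0.0144, edgeR) and -0.13 (SE 0.04, adjusted p = 0.00425, edgeR), and 0.07 in both lines under library totals alone. In U2OS-AsiSI the call was lost without siCtrl replicate 1 (adjusted p = 0.0521), without siINTS11 replicate 3 (0.0638) and with genes under a mean count of 50 left out (0.131). XRCC6 overlapped between the siRNAs, with 4.43, 4.60 and 4.68 RPKM against 4.68, 4.97 and 4.61 in U2OS-AsiSI and 4.62, 4.44 and 4.58 against 4.72, 4.62 and 4.60 in U2OS. Its log2 fold changes were 0.06 (95% interval -0.03 to 0.15, edgeR adjusted p = 0.23) and 0.0025 (-0.07 to 0.08, adjusted p = 0.959), and it passed as higher under library totals alone in both lines (0.25 and 0.20). It also passed in U2OS-AsiSI with genes under a mean count of 50 left out (0.11, adjusted p = 0.0233). A ratio within a library does not depend on the scaling, and the ratio of XRCC5 to XRCC6 per length was lower under siINTS11 in every library. It ran from 0.836 to 0.906 under siCtrl and from 0.741 to 0.782 under siINTS11 in U2OS-AsiSI, and from 0.866 to 0.911 and 0.791 to 0.844 in U2OS. XRCC5 (98.8 kb) and XRCC6 (42.9 kb) differ in span. Protein-coding genes of similar span, given below, had median log2 fold changes of -0.21 and -0.19 for XRCC5 and -0.09 and -0.08 for XRCC6. The medians thus differed in the same direction as the ratio, and the part of span in the ratio was not tested. Both genes averaged over 0.1 reads per base (0.114 and 0.137). Within groups their log counts rose with log library total at slopes of 0.94 and 0.81, and over genes above and below 0.1 reads per base the median slopes were 0.77 and 1.06. The part of this in the Ku values was not tested. The ratio of PRKDC to XRCC5, its partner in the kinase holoenzyme, ran from 0.671 to 0.695 under siCtrl and from 0.682 to 0.716 under siINTS11 in U2OS, which overlap, and from 0.676 to 0.692 and 0.696 to 0.709 in U2OS-AsiSI, where every siINTS11 library was higher.

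DCLRE1C (chromosome 10, 14897359 to 14954432, minus strand), the end-processing nuclease Artemis, fell in both lines. It was at 1.54, 1.51 and 1.46 RPKM under siCtrl against 1.36, 1.35 and 1.33 under siINTS11 in U2OS-AsiSI, and at 1.63, 1.69 and 1.65 against 1.41, 1.37 and 1.41 in U2OS. No siINTS11 library reached the lowest siCtrl library of its line. The log2 fold changes were -0.16 (SE 0.05, adjusted p = 0.00353, edgeR) and -0.28 (SE 0.04, adjusted p = 6.96e-08, edgeR), and 0.04 and -0.08 under library totals alone, where neither passed.

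XRCC4 (chromosome 5, 83077498 to 83353787, plus strand), the scaffold of the ligase complex and the longest of the 10 genes, fell the most of the 9 in both lines. Its levels under siCtrl were 1.15, 1.08 and 1.16 RPKM in U2OS-AsiSI and 1.04, 1.12 and 1.22 in U2OS, and under siINTS11 they were 0.826, 0.775 and 0.722 and 0.819, 0.776 and 0.846. The 2 siRNAs were far apart relative to the spread of the replicates. XRCC4 fell by 31.3% in U2OS-AsiSI (log2 fold change -0.54, SE 0.05, adjusted p = 4.17e-11, edgeR), and it fell by 29.3% in U2OS (log2 fold change -0.50, SE 0.05, adjusted p = 5.72e-12, edgeR). It passed as lower under every alternative run in both lines, and with library totals alone it was at -0.35 and -0.30. LIG4 (chromosome 13, 108207439 to 108218368, minus strand), the ligase that XRCC4 holds and the shortest of the genes, had 185 to 332 reads per library and was at 0.736, 0.734 and 0.759 RPKM under siCtrl against 0.678, 0.745 and 0.777 under siINTS11 in U2OS-AsiSI. In U2OS it was at 0.793, 0.859 and 0.755 against 0.782, 0.817 and 0.798. The groups overlapped in both lines. Its log2 fold changes were -0.01 (95% interval -0.19 to 0.16, edgeR adjusted p = 0.898) and -0.04 (-0.21 to 0.12, adjusted p = 0.682), and the sign turned under library totals alone. The ratio of XRCC4 to LIG4 per length was 1.47 to 1.56 under siCtrl and 0.929 to 1.22 under siINTS11 in U2OS-AsiSI, and 1.31 to 1.62 and 0.95 to 1.06 in U2OS. The scaffold was thus above the ligase per length in every siCtrl library, and the ratio was lower in every siINTS11 library, below 1 in some. XRCC4 and LIG4 differ widely in span. The log2 fold changes of both were below the medians of protein-coding genes of similar span, given below, which was not tested.

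The promoters of these 2 genes are shown because the complex's 2 members moved differently, and that of TP53BP1 because its neighbour moved the opposite way. Each is a 300-base RefSeq window (GRCh38.p14) from 250 bases before to 50 after an annotated start of the gene, read 5′ to 3′ on the gene's strand. XRCC4 and TP53BP1 have 1 such window each, and LIG4 has 5, of which 1 is shown. Capitals mark GC boxes (GGGCGG) and CCAAT boxes (CCAAT), which read CCGCCC and ATTGG where they lie on the other strand. The TATA box (TATAAA) and the AsiSI site (GCGATCGC) were searched on both strands as well. The windows are chr5:83077297-83077596 (plus strand) for XRCC4, chr13:108218300-108218599 (minus strand) for LIG4 and chr15:43510591-43510890 (minus strand) for TP53BP1.
XRCC4: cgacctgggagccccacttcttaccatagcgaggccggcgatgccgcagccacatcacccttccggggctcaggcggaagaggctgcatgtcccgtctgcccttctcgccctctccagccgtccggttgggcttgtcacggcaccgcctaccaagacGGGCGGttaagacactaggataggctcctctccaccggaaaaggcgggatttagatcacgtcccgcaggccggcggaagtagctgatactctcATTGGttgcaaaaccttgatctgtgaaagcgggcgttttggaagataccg
LIG4: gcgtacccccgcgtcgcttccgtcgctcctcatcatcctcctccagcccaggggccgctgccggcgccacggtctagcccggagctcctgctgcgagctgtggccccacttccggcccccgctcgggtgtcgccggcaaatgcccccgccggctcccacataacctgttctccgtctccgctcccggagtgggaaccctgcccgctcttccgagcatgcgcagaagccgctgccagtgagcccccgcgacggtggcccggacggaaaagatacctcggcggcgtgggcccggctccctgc
TP53BP1: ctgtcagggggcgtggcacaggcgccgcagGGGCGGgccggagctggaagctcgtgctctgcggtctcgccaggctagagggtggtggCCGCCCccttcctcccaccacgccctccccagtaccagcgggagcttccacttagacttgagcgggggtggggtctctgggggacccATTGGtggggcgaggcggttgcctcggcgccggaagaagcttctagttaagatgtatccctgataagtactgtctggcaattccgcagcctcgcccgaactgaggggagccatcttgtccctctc
XRCC4 had 1 GC box and 1 CCAAT box at 60.7% G and C, and TP53BP1 had 2 GC boxes and 1 CCAAT box at 66.0%. The LIG4 window shown had neither at 72.3%, against a median of 58.7% over all 35116 windows. Other windows of LIG4 are not described here, so this does not cover every start of the gene. Of those windows 45.0% held a GC box, 34.6% a CCAAT box, 11.5% a TATA box and 0.208% an AsiSI site, and the marked motifs do not overlap each other. Windows were at hand for 8 of the 10 genes (not PRKDC or XRCC5). One window per gene was described, and none of these 8 held the AsiSI letters, nor did any of the 10 genes' annotated transcripts. ATM, DCLRE1C and NHEJ1 have 2 windows each, and those not used are not described here. The start used for ATM lies 583 bases from its deposited 5′ end. Introns and sequence farther from the starts were not searched. These matches are descriptions of the letters and not of factor binding.

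TP53BP1 and RIF1 fell in both lines. TP53BP1 (chromosome 15, 43403061 to 43510728, minus strand), the chromatin reader that marks the ends for joining, was at 0.820, 0.762 and 0.733 RPKM under siCtrl against 0.650, 0.594 and 0.621 under siINTS11 in U2OS-AsiSI. In U2OS it was at 0.850, 0.883 and 0.911 against 0.750, 0.746 and 0.753. The siINTS11 libraries were lower without overlap in each line. The log2 fold changes were -0.31 (SE 0.05, adjusted p = 3.47e-06, edgeR) and -0.26 (SE 0.04, adjusted p = 2.39e-07, edgeR), and under library totals alone -0.11 (adjusted p = 0.0269) and -0.06 (adjusted p = 0.147). RIF1 (chromosome 2, 151409883 to 151508013, plus strand), which TP53BP1 recruits, was at 2.88, 2.81 and 2.81 RPKM against 2.49, 2.51 and 2.26 in U2OS-AsiSI and at 2.81, 2.78 and 2.82 against 2.57, 2.42 and 2.55 in U2OS. These groups were also apart. RIF1 had log2 fold changes of -0.22 (SE 0.05, adjusted p = 0.000107, edgeR) and -0.19 (SE 0.04, adjusted p = 7.27e-05, edgeR), and of -0.03 and 0.01 under library totals alone, where neither passed. The ratio of TP53BP1 to RIF1 overlapped between the siRNAs, at 0.261 to 0.285 and 0.237 to 0.274 in U2OS-AsiSI and 0.303 to 0.323 and 0.292 to 0.309 in U2OS.

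**Figure D2:**
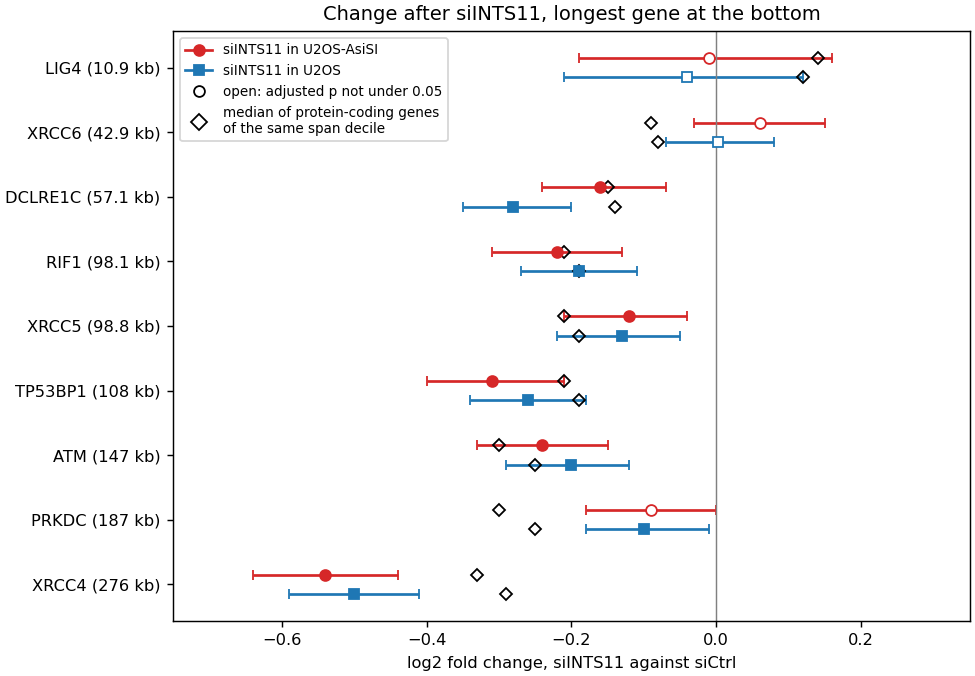
Log2 fold change of siINTS11 against siCtrl (horizontal axis) with 95% intervals for the 9 genes (vertical axis, by span) in U2OS-AsiSI (circles) and U2OS (squares), filled where the edgeR adjusted p was under 0.05. Black diamonds give the median of protein-coding genes in the same decile of gene span, and XRCC4 lies below its diamond (-0.54 against -0.33, and -0.50 against -0.29) while PRKDC lies above (-0.09 against -0.30, and -0.10 against -0.25).

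Long genes fell more than short ones across the transcriptome, so protein-coding genes were divided by span into 10 groups of equal number (deciles) and each gene was set beside its own. Spearman's rho between span and log2 fold change was -0.67 in U2OS-AsiSI and -0.53 in U2OS over the 9 genes, and -0.37 and -0.34 over protein-coding genes. These are descriptions across genes of the same libraries. XRCC4, in the longest decile (from 202.0 kb), changed by -0.54 and -0.50 where the medians of that decile were -0.33 and -0.29. ATM and PRKDC share the decile from 117.0 to 202.0 kb with medians of -0.30 and -0.25. ATM (-0.24 and -0.20) was near them and PRKDC (-0.09 and -0.10) was well above. XRCC5 (-0.12 and -0.13), TP53BP1 (-0.31 and -0.26) and RIF1 (-0.22 and -0.19) share a decile with medians of -0.21 and -0.19, so RIF1 was at the median of its length and the other two were on either side. DCLRE1C was at the median of its decile in U2OS-AsiSI (-0.16 against -0.15) and below it in U2OS (-0.28 against -0.14). The 2 genes that did not pass in either line differed from each other in this respect. XRCC6 (0.06 and 0.0025) was above the medians of its decile (-0.09 and -0.08), and LIG4 (-0.01 and -0.04) was below those of its own (0.14 and 0.12), with SEs of 0.09 and 0.08. No difference of a single gene from its decile was tested, nor was any difference of the 9 genes together from genes of their span.

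**Figure D3:**
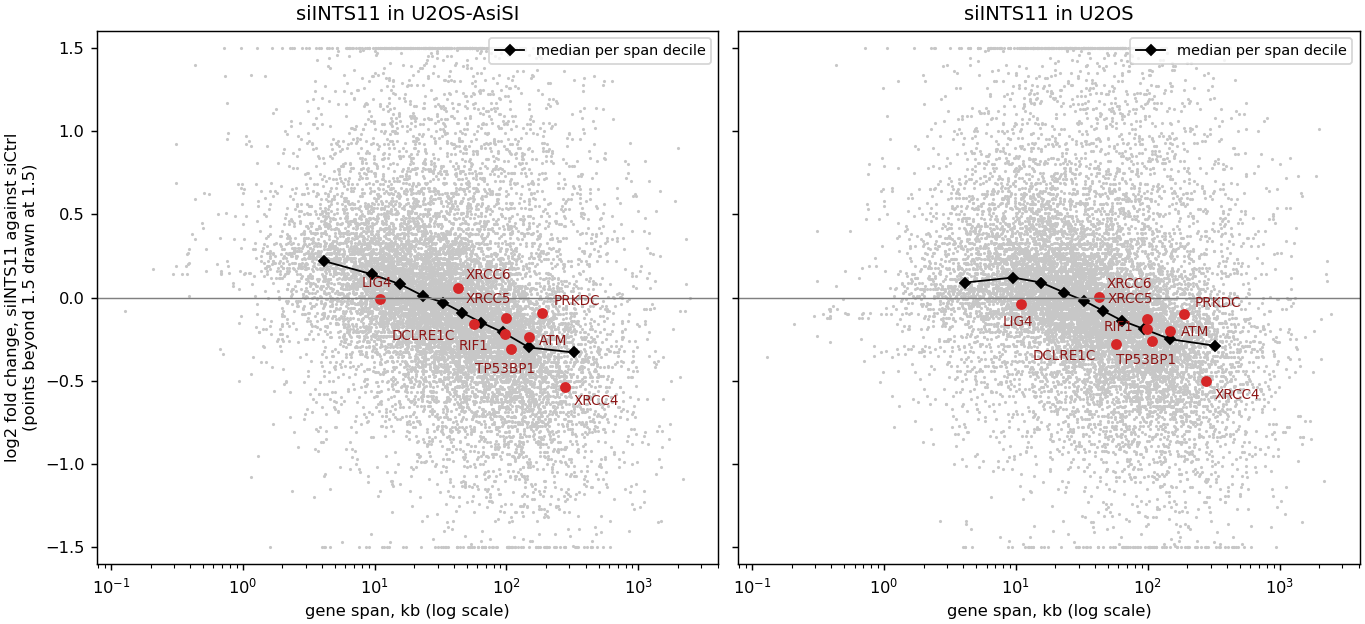
Gene span in kb (horizontal axis, log scale) against log2 fold change of siINTS11 (vertical axis) for protein-coding genes in both lines (grey), the 9 end joining and break signalling genes (red) and the median of each decile of span (black diamonds, at its median span). The medians of the deciles of LIG4 and XRCC4 are 0.14 and -0.33 in U2OS-AsiSI and 0.12 and -0.29 in U2OS, and XRCC4 is the lowest red point in both panels.

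Of the 10 genes 6 start within 1000 bases of a protein-coding gene on the other strand: ATM with NPAT, PRKDC with MCM4, XRCC6 with DESI1, XRCC4 with TMEM167A, LIG4 with ABHD13 and TP53BP1 with MAP1A. The pairs moved alike in some cases and apart in others. TP53BP1 and MAP1A, a neuronal microtubule-associated protein gene (chromosome 15, 43510958 to 43531620, plus strand) that starts 230 bases away, changed in opposite directions. MAP1A was at 1.01, 1.19 and 1.1 RPKM under siCtrl against 1.62, 1.72 and 1.89 under siINTS11 in U2OS-AsiSI and at 1.43, 1.43 and 1.28 against 2.22, 2.13 and 2.13 in U2OS. It rose by 0.67 (SE 0.06, adjusted p = 1.24e-10, edgeR) and 0.62 (SE 0.05, adjusted p = 4.7e-14, edgeR) on the log2 scale, where TP53BP1 fell, and it passed as higher under every alternative in both lines. NPAT, a coactivator of histone genes whose start overlaps that of ATM by 154 bases, fell with it, by 0.22 (SE 0.05, adjusted p = 0.0001, edgeR) and 0.26 (SE 0.04, adjusted p = 1.5e-06, edgeR), with neither passing under library totals alone (-0.04 and -0.06). TMEM167A overlaps XRCC4 by 365 bases and fell less, with -0.22 (SE 0.05, adjusted p = 0.000215, edgeR) and -0.16 (SE 0.04, adjusted p = 0.000608, edgeR), and -0.03 and 0.04 under library totals alone. Its span of 25.0 kb is in a decile with medians of 0.01 and 0.03. TMEM167A was below these medians, as XRCC4 was below those of its own decile, and neither difference was tested.

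MCM4, a subunit of the replicative helicase that starts 7 bases from PRKDC, did not pass in either line (0.03, adjusted p = 0.574, and 0.06, adjusted p = 0.247, edgeR) and rose under library totals alone (0.22 and 0.26) and, in U2OS, with genes under a mean count of 50 left out (0.10, adjusted p = 0.0363). DESI1, which starts 76 bases from XRCC6, was higher by 0.12 (SE 0.05, adjusted p = 0.0293, edgeR) and 0.13 (SE 0.05, adjusted p = 0.0159, edgeR), calls that DESeq2 did not make (adjusted p = 0.143 and 0.0874). In U2OS-AsiSI it was also lost with median-of-ratios factors (adjusted p = 0.0814) and without a count filter (0.113), and leaving out siCtrl replicate 2 (adjusted p = 0.125) or 3 (0.0506), or siINTS11 replicate 1 (0.0875) or 2 (0.0822), ended that call, as did siINTS11 replicate 3 in U2OS (0.0576). ABHD13 starts 24 bases from LIG4, at base 208 of the LIG4 window shown above, and differed in its calls, with -0.27 (SE 0.07, adjusted p = 0.000845, edgeR) in U2OS-AsiSI and -0.03 (SE 0.06, adjusted p = 0.65, edgeR) in U2OS. Between the lines it differed by -0.27 (SE 0.10, adjusted p = 0.135, edgeR), and it passed only without siINTS11 replicate 1 of U2OS-AsiSI (-0.35, adjusted p = 0.037). The strand setting of the counting is not given in the sources used here. Of 983 protein-coding genes lying under genes of the opposite strand alone, 34.0% averaged at least 50 reads, against the 0.354% given above for cover on their own strand. The opposite strand holds other genes over 41.5% of ATM, 23.1% of RIF1 and 12.2% of DCLRE1C, and at most 6.23% of the rest.

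**Figure D4:**
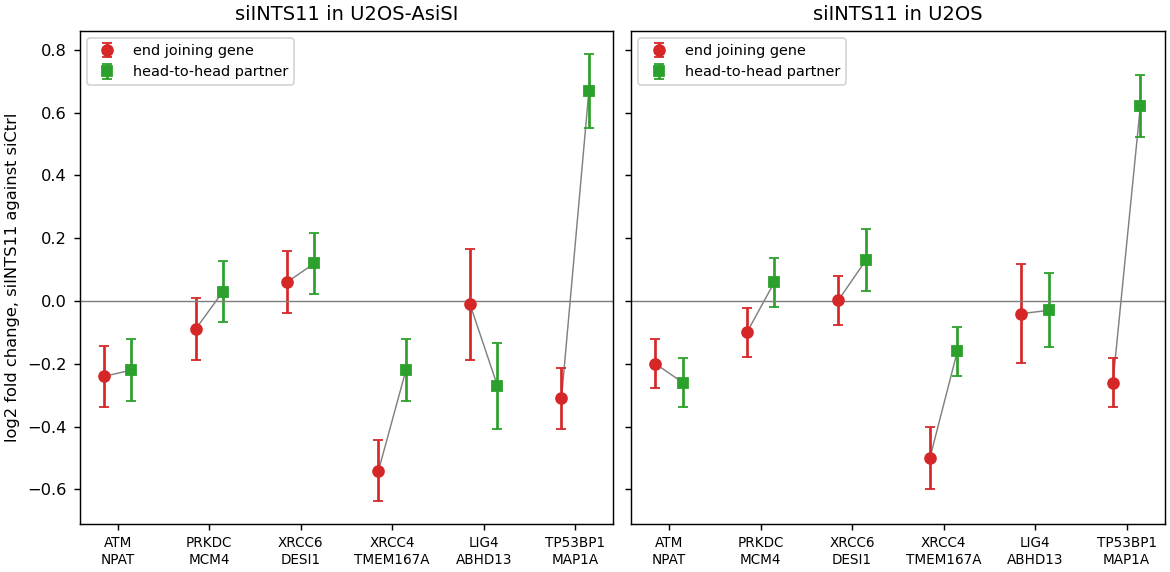
Log2 fold change of siINTS11 against siCtrl (vertical axis, with 95% intervals) of 6 end joining and break signalling genes (circles) and the genes that start head to head with them (squares), joined by lines, in both lines. TP53BP1 (-0.31 and -0.26) and MAP1A (0.67 and 0.62) lie on opposite sides of 0, and ATM and NPAT lie side by side below 0.

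Whether the siINTS11 change differed between the lines was tested directly, by the siRNA-by-line interaction in a fit of the 12 libraries. None of the 9 genes passed in edgeR (adjusted p from 0.424 to 0.985), 0 had an unadjusted p under 0.05, and DESeq2 called 0. The differences, U2OS-AsiSI minus U2OS, ran from -0.08 for XRCC4 (95% interval -0.22 to 0.07) and TP53BP1 (-0.20 to 0.05) to 0.09 for DCLRE1C (-0.02 to 0.20), with a median of -0.03 against -0.05 over all genes. Over 21521 genes the interaction called 3.87%, 3.1% lower and 0.762% higher in U2OS-AsiSI. The share of these calls that were higher was 19.7%, and it was 39.6% with median-of-ratios size factors, 29.5% with library totals alone, 56.6% without a count filter, 67.0% with genes under a mean count of 50 left out and 40.9% with DESeq2. Without U2OS siCtrl replicate 3 it was 53.6%, with 188 genes higher and 163 lower.

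Under siCtrl 2 of the 9 genes were lower in U2OS-AsiSI with OHT than in U2OS, which has no treatment label, where 17.2% of 19935 genes were lower, 17.8% higher and 34.9% differed in all. TP53BP1 had the larger difference, with 0.820, 0.762 and 0.733 RPKM against 0.850, 0.883 and 0.911, a log2 fold change of -0.19 (SE 0.05, adjusted p = 0.00175, edgeR) that passed under every alternative. DCLRE1C, at 1.54, 1.51 and 1.46 against 1.63, 1.69 and 1.65 RPKM, had -0.14 (SE 0.04, adjusted p = 0.0117, edgeR). That call was lost without siCtrl replicate 2 of U2OS (adjusted p = 0.0746), without siCtrl replicate 3 of U2OS-AsiSI (0.0643), after thinning (0.0638) and under library totals alone (-0.08, adjusted p = 0.12). In these 2 genes the libraries of the lines did not overlap, as was so in the lower direction for 21.9% of all genes (44.9% in either). The other 7 lay between -0.11 (LIG4, 95% interval -0.29 to 0.06) and 0.02 (RIF1, -0.06 to 0.10), and the median of the 9 was -0.03 against 0.01 over all genes. Longer genes were lower in this comparison too, with medians of span deciles from 0.21 for the shortest to -0.14 for the longest. The median was -0.09 in the decile of TP53BP1 and -0.06 in that of DCLRE1C, and differences from these were not tested. ATM (-0.05), PRKDC (-0.03) and XRCC5 (-0.03) turned to 0.01, 0.02 and 0.02 under library totals alone. With that scaling the share of calls that were higher moved from 50.9% to 67.4%. This comparison shares its siCtrl libraries with both siINTS11 comparisons. MAP1A was lower in U2OS-AsiSI (-0.32, SE 0.06, adjusted p = 0.000196, edgeR), as was its neighbour TP53BP1.

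Other genes of the pathway were followed in a list of 28, of which 25 were tested. In U2OS-AsiSI 5 rose and 9 fell after siINTS11, with a median log2 fold change of -0.0031, where 35.4% of all genes rose and 32.6% fell. In U2OS 4 rose and 7 fell, with a median of -0.04, where 34.5% of all genes rose and 32.4% fell. Under library totals alone the counts were 14 higher and 1 lower (POLQ), and 17 higher and 2 lower (POLQ and XRCC1). With genes under a mean count of 50 left out they were 7 and 7, and 7 and 5, and with DESeq2 they were 3 and 9, and 3 and 7. Median-of-ratios factors also gave 3 and 9 in U2OS-AsiSI, and thinning gave 5 and 5 in U2OS. DNTT, the template-independent polymerase of lymphocytes, had at most 3 reads in a library. RAD50 (58 reads in all, covered to 99.7% by AC116366.3 on its strand) and SHLD3 (0 reads, within TRAPPC13) were not measurable.

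Among the partners of TP53BP1, in a tested group of 6, 2 rose and 1 fell in U2OS-AsiSI (35.4% and 32.6% of all genes) and 3 rose and 2 fell in U2OS (34.5% and 32.4%). SHLD1, a subunit of the shieldin complex that acts downstream of RIF1 to protect ends, rose the most of the list. It was at 0.198, 0.212 and 0.191 RPKM under siCtrl and 0.332, 0.335 and 0.344 under siINTS11 in U2OS-AsiSI, and at 0.189, 0.216 and 0.214 against 0.409, 0.372 and 0.366 in U2OS. It rose by 68.5% (log2 fold change 0.75, SE 0.06, adjusted p = 4.71e-13, edgeR), and by 81.6% (log2 fold change 0.86, SE 0.06, adjusted p = 1.81e-17, edgeR), while its span of 114.0 kb is in a decile with medians of -0.21 and -0.19. SHLD2, another shieldin subunit, fell instead, with -0.23 (SE 0.05, adjusted p = 6.56e-05, edgeR) and -0.11 (SE 0.04, adjusted p = 0.0176, edgeR). Its span of 97.3 kb is in the same decile as SHLD1. SHLD2 was thus close to the median of that decile in U2OS-AsiSI (-0.21) and above it in U2OS (-0.19). Differences of SHLD1 and SHLD2 from these medians were not tested. DYNLL1, a dynein light chain that binds TP53BP1, rose by 0.39 (SE 0.06, adjusted p = 3.18e-06, edgeR) and 0.39 (SE 0.07, adjusted p = 9.94e-06, edgeR). NUDT16L1 (TIRR), which masks the chromatin-binding surface of TP53BP1, rose by 0.30 in U2OS (SE 0.12, adjusted p = 0.0279, edgeR). That call was lost in DESeq2 (adjusted p = 0.116) and without siCtrl replicate 2 (0.1) or 3 (0.0884) or siINTS11 replicate 2 (0.105) or 3 (0.0735).

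In the alternative end joining group of 4, 3 fell and none rose in each line, against 32.6% and 32.4% of all genes lower, and XRCC1, whose counts are uncertain, is among the 3. POLQ, the polymerase that joins ends through microhomology, went from 1.70, 1.70 and 1.69 RPKM to 1.29, 1.36 and 1.22 in U2OS-AsiSI and from 1.82, 1.93 and 2.02 to 1.55, 1.43 and 1.51 in U2OS, without overlap. Its log2 fold change was -0.39 in both lines (SE 0.05 and 0.04, edgeR adjusted p = 8.63e-09 and 6.11e-11). XRCC1, a scaffold of single-strand break repair that also acts with ligase III, fell by 0.25 (SE 0.08, adjusted p = 0.00449, edgeR) and 0.51 (SE 0.07, adjusted p = 6.19e-08, edgeR), but 68.9% of it is shared with L34079.1 on its strand and its counts are uncertain. In U2OS-AsiSI it did not pass under library totals alone (-0.06). LIG3 had -0.16 (edgeR adjusted p = 0.00429) and -0.10 (edgeR adjusted p = 0.0351), and PARP1, the sensor that opens this route, had 0.03 and 0.02 and did not pass.

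Of 8 tested genes of break sensing and signalling, 1 rose and 3 fell in U2OS-AsiSI (35.4% and 32.6% of all genes) and 0 rose and 2 fell in U2OS (34.5% and 32.4%). H2AX, the histone that ATM phosphorylates at breaks, was at 12.6, 12.1 and 14.1 RPKM under siCtrl and 16.1, 19.7 and 16.5 under siINTS11 in U2OS-AsiSI, which is 0.43 on the log2 scale (SE 0.07, adjusted p = 2.85e-06, edgeR). In U2OS it was at 13.9, 11.8 and 12.8 against 14.4, 14.2 and 13.7, which overlap, with 0.11 (SE 0.06, adjusted p = 0.121, edgeR). The interaction for H2AX did not pass (0.29, SE 0.10, adjusted p = 0.0967, edgeR), and at 0.42 reads per base H2AX is in the range where counts rose less than in proportion to depth. Library totals were lower under siINTS11 in U2OS-AsiSI, as given above, and the part of depth in the H2AX values was not tested. NBN, the member of the MRE11 complex that binds ATM, fell in U2OS-AsiSI (-0.23, SE 0.05, adjusted p = 0.000135, edgeR) and had -0.07 in U2OS (edgeR adjusted p = 0.104). KAT5 (Tip60), the acetyltransferase that activates ATM, fell in U2OS (-0.35, SE 0.07, adjusted p = 2.03e-05, edgeR) and had 0.01 in U2OS-AsiSI (edgeR adjusted p = 0.943). Neither difference between the lines passed, at -0.19 for NBN (edgeR adjusted p = 0.0904) and 0.32 for KAT5 (edgeR adjusted p = 0.0675). Under library totals alone the calls of NBN in U2OS-AsiSI (-0.04) and KAT5 in U2OS (-0.15) were lost. The interaction called 0 of the 25 list genes in edgeR and 0 in DESeq2, and 10 (40.0%) had an unadjusted p under 0.05, as did 18.6% of all 21521 genes. Of 7 tested genes of accessory end joining, CYREN rose (0.13, edgeR adjusted p = 0.0386) and APLF (-0.22, edgeR adjusted p = 0.00404) and APTX (-0.12, edgeR adjusted p = 0.0192) fell in U2OS-AsiSI, and POLL rose in U2OS (0.19, edgeR adjusted p = 0.00777). Under siCtrl 7 of the 25 genes were higher in U2OS-AsiSI and 5 lower (11 and 3 under library totals alone), where 17.8% of all genes were higher and 17.2% lower, with RNF8, the ligase that begins ubiquitin signalling at breaks, the lowest at -0.51 (SE 0.05, adjusted p = 3.79e-10, edgeR). RNF8 also fell after siINTS11 in U2OS (-0.24, SE 0.04, adjusted p = 1.36e-06, edgeR) and had -0.04 in U2OS-AsiSI (edgeR adjusted p = 0.49). Its interaction did not pass (0.17, edgeR adjusted p = 0.182).

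**Figure D5:**
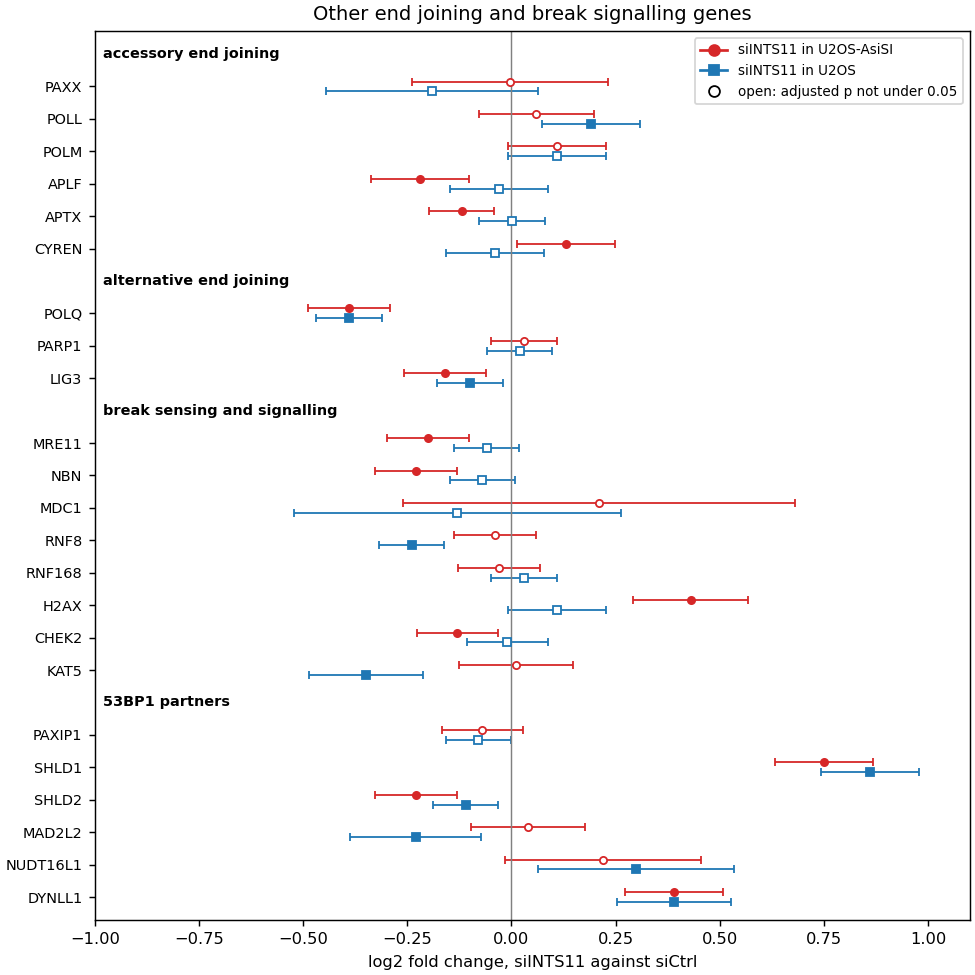
Log2 fold change of siINTS11 against siCtrl (horizontal axis, with 95% intervals) of the tested list genes that share less than 50% of their span with another gene on their strand (vertical axis, by role) in U2OS-AsiSI (circles) and U2OS (squares), filled where the edgeR adjusted p was under 0.05. SHLD1 is highest in both lines (0.75 and 0.86), POLQ is at -0.39 in both, and H2AX is at 0.43 and 0.11.

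The profile of the 9 genes over the 12 libraries was summarised as the mean of their log2 CPM, each centred on its own mean. Among 9361 other protein-coding genes averaging at least 10 CPM, those most like it were RC3H1 (Pearson's r 0.995), RIC1 (0.993) and MTX2 (0.992). RC3H1 had log2 fold changes of -0.29 (SE 0.05, adjusted p = 1.26e-06, edgeR) and -0.29 (SE 0.04, adjusted p = 3.26e-08, edgeR) in U2OS-AsiSI and U2OS, RIC1 -0.59 and -0.52, and MTX2 -0.29 and -0.30. The 12 points share their libraries and their scaling, and the measure is a description of likeness.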

How the data were processed

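TT-seq counts of 12 libraries in 4 groups of 3, grouped and numbered by the sample titles, were analysed. The authors deposited raw read counts per gene as whole numbers. Trimmomatic 0.36, STAR 2.7, deepTools, featureCounts and hg38 are named, with no role or order, in the submitters' processing notes. The counts cover the whole gene span, and 0 columns were left without a sample. Of 55454 symbols also in GENCODE release 29, 75.1% had the same position. The strand setting and the handling of duplicates are not given in the sources used here.

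The test was the two-sided quasi-likelihood test of edgeR 4.0.16 (R 4.3.3), after filterByExpr and TMM, with robust dispersions and Benjamini-Hochberg adjustment over all genes tested and a threshold of 0.05. Only the 6 libraries compared entered each fit, and all 12 the interaction. Intervals of 95% are Wald intervals from the SE. Levels were scaled over all 12 libraries and fold changes within each comparison, so the 2 can differ slightly. Replicates differed by more than sampling noise (chi-square per degree of freedom 1.93 to 3.28), and SEs cover the spread between libraries only. The code was tested on simulated data.

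The 10 genes and the lists were chosen with earlier results of these data known. Besides them the text names INTS11, protein-coding genes starting head to head within 1000 bases, in each siINTS11 comparison the 3 highest and 3 lowest called list genes that averaged 100 or more counts, and the 3 genes of most like profile. Other list genes were named after their values were seen, and 1 list gene is counted in the totals but not reported here. Alternatives were median-of-ratios factors, library totals, scaling from genes under 0.1 reads per base, no filter, a mean count of at least 50, a replicate block, DESeq2 1.42.0, thinning to the smallest total and each library left out.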

Additional observations from a re-analysis of the deposited data

How the results depend on the processing

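Leaving out each library gave 12705 to 13777 genes and 5 to 6 of the 9 genes past the threshold after siINTS11 in U2OS-AsiSI, with 10 to 15 of the list of 25, and 12884 to 13916 genes, 6 to 7 of the 9 and 8 to 12 of the list in U2OS. For the siCtrl comparison it gave 5341 to 7016 genes, 1 to 2 of the 9 and 9 to 14 of the list. With library totals alone the numbers were 3 of the 9 (2 higher, 1 lower) and 19 of the list in U2OS, and 1 of the 9 in the siCtrl comparison, which was 1 also after thinning. The difference between the lines was the least stable count. It was 832 genes, and 447 with median-of-ratios factors, 423 with DESeq2, 531 after thinning and 286 to 946 with a library left out, falling by over 1.5 times without U2OS siCtrl replicates 1 and 3, each U2OS siINTS11 replicate, U2OS-AsiSI siCtrl replicates 1 and 2 or U2OS-AsiSI siINTS11 replicates 2 and 3. Its list count was 0, and 2 without a filter, 3 with a mean count of at least 50, 1 after thinning and 0 to 4 with a library left out, being 2 without U2OS siCtrl replicate 2, 1 without U2OS-AsiSI siCtrl replicate 3 and 4 without U2OS-AsiSI siINTS11 replicate 1. The causes were not tested.

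Same-numbered libraries did not deviate together (r from -0.11 to 0.14 between same numbers), so the numbers were not taken as pairs. With the replicate number as a block, 1281 genes and 2 list genes differed between the lines, PRKDC passed in U2OS-AsiSI (-0.09, adjusted p = 0.0219), and in the siCtrl comparison NPAT (-0.12) and TMEM167A (0.12) did not pass. The block moved no other call of the 9 genes.

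Signs turned as follows, in values that mostly lay near 0 and none of which passed the threshold except as stated. After siINTS11 in U2OS-AsiSI, library totals gave PRKDC 0.10 (adjusted p = 0.00913), XRCC5 0.07, DCLRE1C 0.04, LIG4 0.18 and INTS11 0.06. LIG4 was 0.01 with scaling from genes under 0.1 reads per base, 0.04 with a mean count of at least 50 and 0.03 after thinning. With a library left out LIG4 ranged from -0.06 to 0.04 and MCM4 from -0.01 to 0.06. In U2OS, library totals gave PRKDC 0.10 (adjusted p = 0.00229), XRCC5 0.07, LIG4 0.16, RIF1 0.01, TMEM167A 0.04 and ABHD13 0.16 (adjusted p = 0.0306). XRCC6 was -0.01 with median-of-ratios factors and DESeq2, LIG4 0.00092 and ABHD13 0.01 with a mean count of at least 50, and ABHD13 0.04 after thinning. Leaving out a library gave XRCC6 -0.01 to 0.02, LIG4 -0.07 to 0.03 and ABHD13 -0.11 to 0.04.

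For the difference between the lines, median-of-ratios factors and DESeq2 each gave PRKDC 0.01, XRCC5 0.01 and LIG4 0.02. Library totals gave XRCC5 0.00025 and LIG4 0.02, no filter PRKDC 0.02, XRCC5 0.03, LIG4 0.04 and DESI1 0.01, and a mean count of at least 50 PRKDC 0.04, XRCC5 0.05, LIG4 0.06, RIF1 0.0018, MCM4 0.01 and DESI1 0.03. LIG4 was 0.01 with scaling from genes under 0.1 reads per base and 0.05 after thinning, MAP1A was -0.04 after thinning, and NPAT was -0.0011 with the replicate block. Leaving out a library gave PRKDC -0.04 to 0.01, XRCC5 -0.04 to 0.01, LIG4 -0.06 to 0.09, NPAT -0.03 to 0.05, MCM4 -0.09 to 0.01 and MAP1A -0.05 to 0.12. In the siCtrl comparison, library totals gave ATM 0.01, PRKDC 0.02 and XRCC5 0.02. XRCC4 was -0.0036 with median-of-ratios factors and -0.0035 with DESeq2. Leaving out a library gave ATM -0.09 to 0.0032, PRKDC -0.06 to 0.0047, XRCC6 -0.0043 to 0.03 and XRCC4 -0.04 to 0.07.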
